A study of Mus musculus with 6 samples.

Results

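The 10 mouse genes Nabp1, Amigo2, Nicn1, Hapln3, Caprin2, Kyat1, Cdkn2aip, Jpt1, Arc and Clu were examined for the position of RNA polymerase II along each gene. They were picked from 12718 genes because, in Armc5 knockout adrenal glands, counts over the gene body or the transcription end site (TES) were higher than in wild type (WT), or because the ratio of transcription start site (TSS) counts to gene body counts was lower. All knockout against WT values of these genes therefore come from the contrast that chose them. They are given as a description. Where a gene is said to be called, this states its place in a fit across all genes and is no independent test of it. All 10 genes had counts in all 3 regions, and 10 of 10 passed the filter on low counts in each region.

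RPB1 is the main catalytic subunit of this polymerase, and it was located on DNA by ChIP-seq, in which chromatin is pulled down with an antibody, here one against the N-terminal domain of RPB1, and the bound DNA is sequenced. The WT group was 3 female mice and the knockout group 3 female mice of genotype Armc5(-/-), all of strain 129 sv X CD1 and aged 10 to 14 months. The material was adrenal glands, which hold several cell types. The labels give 6 different mouse numbers and no treatment, and the knockout is not described there as limited to a cell type. Libraries are named here by genotype and replicate number.

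RNA polymerase II assembles at the promoter, starts transcription at the TSS and often pauses a short way downstream. Release from the pause lets it elongate through the gene body, and it leaves the template after passing the polyadenylation site near the TES. An antibody to the N-terminal domain binds RPB1 at each of these stages, so the balance of TSS, gene body and TES counts describes where along a gene the polymerase was found. The Armc5 protein, which carries armadillo repeats and a BTB domain, is known as a substrate adaptor of a CUL3 ubiquitin ligase that acts on RPB1.

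Values are CPM, read counts relative to the library total of the same region, after scaling that sets typical genes equal between libraries. A CPM at the TSS and a CPM in the gene body therefore have different totals behind them. Their ratio compares a gene with the typical gene and is not the share of polymerase at the promoter. The summed counts of the 3 regions ran from 14511177 to 28190157 per library. The smallest sums were those of WT replicates 1 and 2 and of knockout replicate 1, and they were set apart by the main axis of variation (first principal component) from the other 3 libraries in each region. They are called the lower-depth libraries. The same libraries had more of their TSS counts on the single gene Gm10800 (10.9, 25.1 and 11.7%, against 2.67 to 4.66% in the others). At the TES the shares were 4.41, 7.01 and 4.49%, against 1.52 to 2.62%, and in the gene body they overlapped. Depth class therefore cannot be told apart from this difference. By label, WT replicate 1 and knockout replicate 1 carry mouse numbers with the prefix C and the other 4 libraries carry digits only.

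RefSeq promoter sequences of the build GRCm38.p6 were matched for 8 of the 10 genes, and Arc and Clu had none in the table used. The sequences upstream of Nabp1, Nicn1, Cdkn2aip and Jpt1 are shown. These genes had higher gene body and TES counts in every knockout library and no other annotated gene within 5000 bp of their promoter side. In Nicn1 and Cdkn2aip the TSS counts were higher in every knockout library as well. Each runs 5′ to 3′ on the strand of the gene and ends at the last base before the annotated gene. Capitals mark matches on either strand to the TATA box, spelled TATAAA here, the CCAAT box or the GC box, which is searched as GGGCGG. A match on the opposite strand is printed as its reverse complement.
Nabp1 (chr1:51478476-51478649, minus strand): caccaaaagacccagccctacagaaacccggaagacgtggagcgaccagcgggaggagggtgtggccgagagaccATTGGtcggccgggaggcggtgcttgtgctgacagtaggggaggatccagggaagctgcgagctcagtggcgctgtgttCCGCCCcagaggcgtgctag
Nicn1 (chr9:108290193-108290442, plus strand): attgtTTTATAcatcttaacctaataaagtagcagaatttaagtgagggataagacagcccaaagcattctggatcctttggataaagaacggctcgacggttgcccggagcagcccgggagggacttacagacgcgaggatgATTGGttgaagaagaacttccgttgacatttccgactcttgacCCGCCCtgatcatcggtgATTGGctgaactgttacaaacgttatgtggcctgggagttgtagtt
Cdkn2aip (chr8:47713932-47714181, minus strand): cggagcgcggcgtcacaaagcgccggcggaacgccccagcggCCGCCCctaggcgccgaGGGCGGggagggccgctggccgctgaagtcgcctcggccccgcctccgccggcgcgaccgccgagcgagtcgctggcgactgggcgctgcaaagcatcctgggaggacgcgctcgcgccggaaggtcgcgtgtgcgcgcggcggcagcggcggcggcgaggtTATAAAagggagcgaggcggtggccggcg
Jpt1 (chr11:115514394-115514643, minus strand): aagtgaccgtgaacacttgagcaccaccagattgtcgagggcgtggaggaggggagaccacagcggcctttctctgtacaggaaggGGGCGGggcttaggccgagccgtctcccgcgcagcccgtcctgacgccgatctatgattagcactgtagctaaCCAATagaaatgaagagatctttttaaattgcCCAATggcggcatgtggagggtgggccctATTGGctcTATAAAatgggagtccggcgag

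In the 250 bases before the start, TATAAA occurred in 4 of the 8 promoters (Nicn1, Hapln3, Cdkn2aip and Jpt1) and in 5.99% of the 9911 promoters of table genes. In Cdkn2aip and Jpt1 it began 29 and 22 bases before the start on the strand of the gene. In Nicn1 the match began 245 bases before the start and was on the opposite strand. That of Hapln3 precedes a listed start 2155 bp inside the outermost annotated end of the gene. CCAAT occurred in 5 of 8 and in 36.5% of all, and GGGCGG in 7 of 8 and in 61.1% of all. The E-box CACGTG, the cAMP response element TGACGTCA and the heat shock element core GAANNTTC occurred in 0 of the 8, and in 8.45%, 2.91% and 4.78% of all promoters. A match describes letters in this window and is not a measured binding site.

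Across the 10 genes, gene body and TES counts were higher in the knockout while TSS counts moved less. The median log2 fold change was 1.27 in the gene body (range 0.66 to 2.18) and 1.54 at the TES (range 0.85 to 2.33), against 0.51 at the TSS (range -1.06 to 0.89). Over all tested genes the medians were -0.02, -0.02 and -0.01. The size of the contrast depended on the scaling. With joint table scaling the medians of the 10 genes were 1.16 (gene body), 1.44 (TES) and 0.79 (TSS). Those of all genes were then -0.12, -0.12 and 0.24. All but Hapln3, 9 genes, were called higher at an adjusted p under 0.05 in the gene body, where 0.244% of 12714 tested genes were called higher, and the same 9 were called at the TES, where 0.820% of 12680 were. The TES call of Clu was lost in 6 of 14 alternatives. At the TSS 0 of the 10 were called by edgeR (6 at an unadjusted p under 0.05, and 2 by DESeq2), and 0.339% of 12682 tested genes were called higher. The 3 knockout libraries lay above all 3 WT libraries for 10 genes in the gene body, 9 at the TES and 5 at the TSS, where 6.51%, 6.69% and 6.47% of tested genes did so. These counts come from the contrast used to choose the genes, and nothing was read from them. The gene body calls of all 9 ended with joint table scaling, with the mouse number class or the replicate number as a covariate, and when WT replicate 1 or any knockout library was left out (0 of the 10 called in each case). Those of Kyat1, Cdkn2aip and Jpt1 also ended without WT replicate 2, and those of the same 3 genes, Arc and Clu without WT replicate 3. The call of Jpt1 ended with another scaling (RLE) as well. Every gene body estimate kept its sign. The glands are bulk tissue, so more cells that use a gene and more polymerase per cell cannot be told apart.

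**Figure D1:**
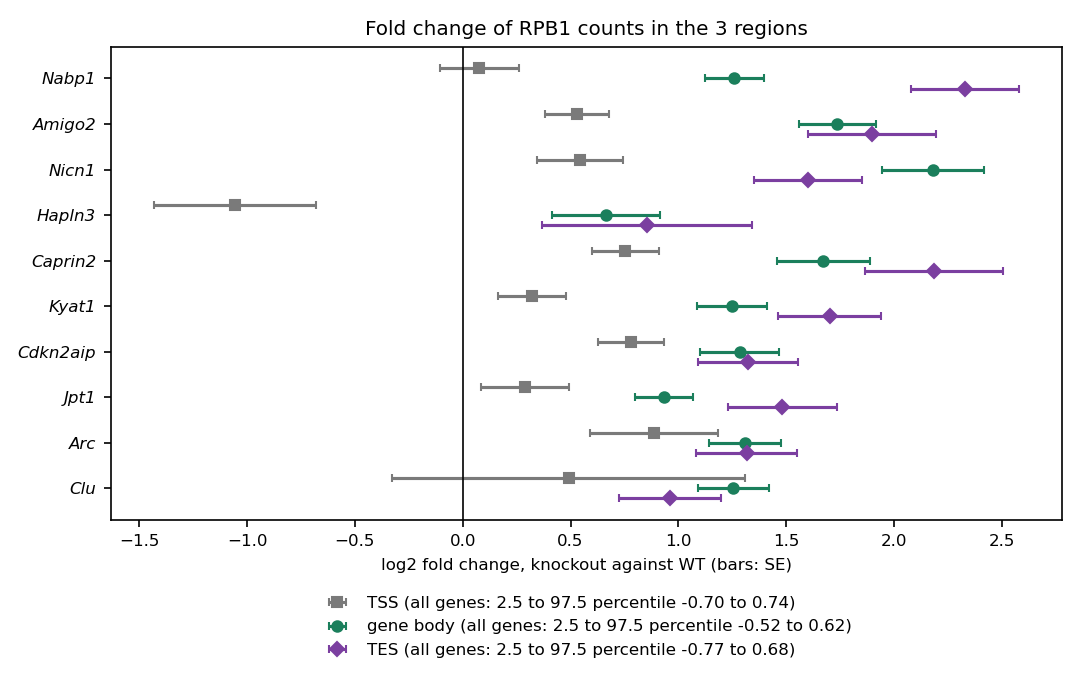
Log2 fold change of knockout against WT (horizontal axis, bars are the standard error of the edgeR fit on 3 mice per genotype) for each of the 10 genes, by region. Gene body and TES estimates run from 0.66 to 2.33, and the TSS estimate of each gene lies to the left of its gene body and TES estimates.

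The description of these genes as lacking a promoter gain held in part. Of the 10 TSS log2 fold changes 9 were above 0, and that of Hapln3 was below. Those of Arc (0.89 ± 0.30, SE), Cdkn2aip (0.78 ± 0.15) and Caprin2 (0.75 ± 0.16) ranked 198, 273 and 306 from the highest among the 12682 tested genes. The lowest of the 9 were those of Nabp1 (0.08 ± 0.18, and -0.02 without WT replicate 1), Jpt1 (0.29 ± 0.20) and Kyat1 (0.32 ± 0.16). With depth class as a covariate the TSS rows of 4 genes were called higher (Caprin2, Cdkn2aip, Arc and Clu). That fit also called more TSS rows over all genes, as counted in the closing section. In the fit without covariates the 10 genes had in common an estimate that was lower at the TSS than in the gene body and at the end site. With depth class in the fit the TSS estimate of Clu was 1.45, above its gene body and TES estimates.

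**Figure D2:**
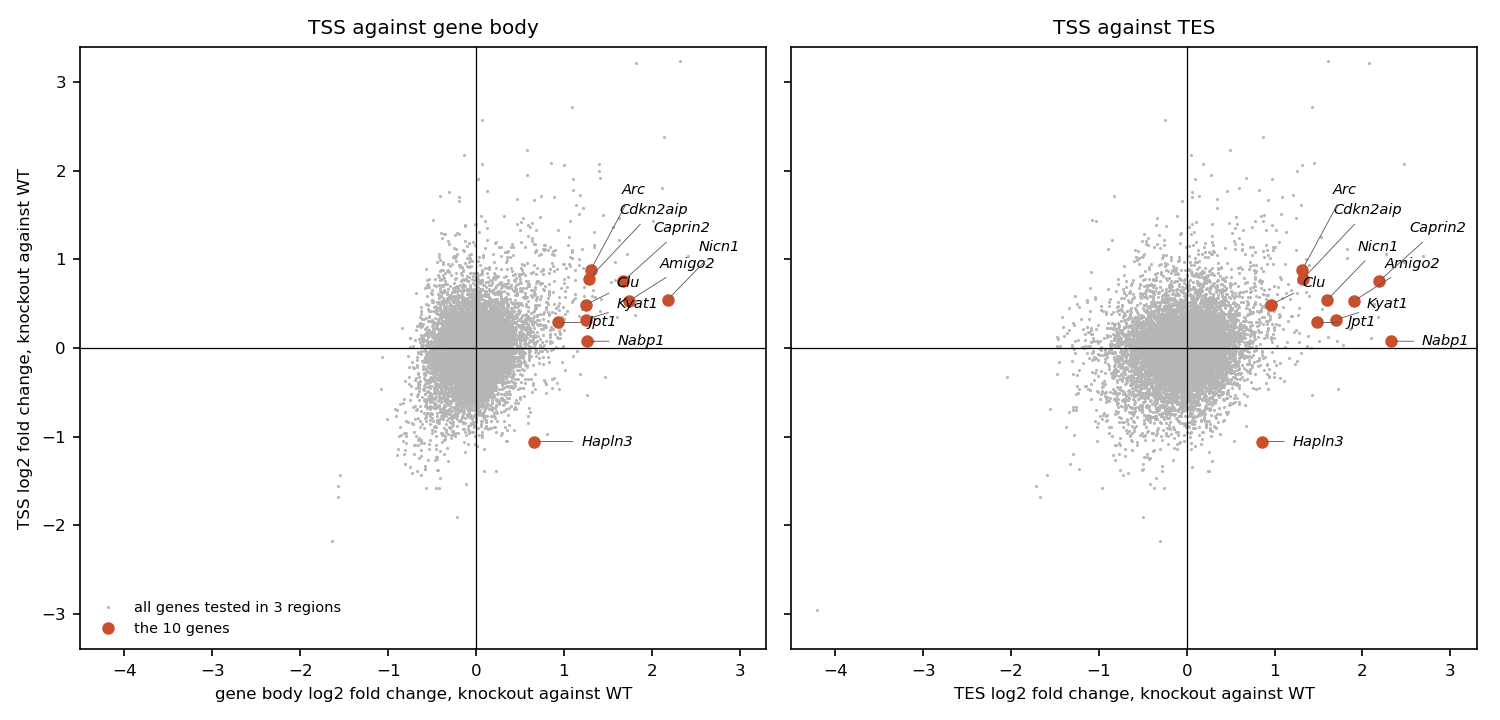
TSS log2 fold change (vertical axis) against gene body (left) and TES (right) log2 fold change of knockout over WT, one grey point per gene for 12643 genes tested in all 3 regions, with the 10 genes in red and named. The 9 red points of the other genes lie right of and above the origin, from 0.08 to 0.89 on the vertical axis, and Hapln3 lies below it at -1.06.

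Nabp1 and Cdkn2aip belong to genome maintenance. Nabp1 encodes a single-stranded DNA binding protein of the SOSS complex, which acts in the repair of DNA breaks and also contains the Integrator subunit Ints3. The gene (chromosome 1, 51464968 to 51478475, minus strand) had 305, 320 and 419 CPM at the TSS in WT replicates 1, 2 and 3, against 329, 395 and 379 CPM for the knockout ones. The groups overlapped, and the highest value was a WT library. WT replicates held 46.5, 38.2 and 42.4 CPM over the gene body, whereas knockout replicates held 96.0, 103 and 106 CPM. Counts at the TES came to 41.4, 35.3 and 25.4 CPM in WT libraries, compared with 158, 169 and 181 CPM in knockout libraries. In both downstream regions every knockout library was over 2 times the highest WT library. The log2 fold changes were 1.26 ± 0.14 for the gene body and 2.33 ± 0.25 for the TES, the fourth highest of all TES fold changes. Within the lower-depth libraries the TES fold was 4.12 and within the higher-depth libraries 6.89.

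Nabp1 also had the lowest TSS log2 fold change among the 9 genes above 0, with a WT promoter level above that of 99.6% of tested genes. Its TSS to gene body ratio of CPM was 6.56, 8.37 and 9.89 in WT and 3.42, 3.85 and 3.58 in the knockout, with no overlap. Its TES to gene body ratio was 0.891, 0.924 and 0.599 in WT and 1.65, 1.64 and 1.71 in the knockout, again with no overlap. Nabp1 was the 1 gene of the 10 whose TES to gene body ratio was higher in all 3 knockout libraries (log2 change 1.09 ± 0.21), where 5.51% of tested genes showed such a separation and 0.0158% of ratio changes were called. Of the counts assigned to Nabp1, the TSS held 44.5 ± 10.7% in WT and 30.0 ± 4.15% in the knockout, and the TES 3.92 ± 1.23% and 9.49 ± 0.80% (mean ± SD, n = 3).

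Cdkn2aip encodes a nuclear protein that binds the tumour suppressor ARF and acts in the p53 pathway. The gene (chromosome 8, 47709344 to 47713931, minus strand) had 165, 147 and 178 CPM at the TSS in WT libraries, against 275, 269 and 302 CPM for the knockout ones. Knockout libraries held 40.5, 42.9 and 36.9 CPM over the gene body, while WT libraries held 20.4, 14.6 and 14.3 CPM. The 2 genotypes did not overlap in either region, so its promoter count was also higher in every knockout library. At the TES, WT libraries held 49.7, 45.1 and 33.7 CPM against 97.3, 113 and 108 CPM in knockout libraries. The log2 fold changes were 0.78 ± 0.15 (TSS), 1.28 ± 0.18 (gene body) and 1.32 ± 0.23 (TES). Its TSS to gene body ratio overlapped between genotypes, with 8.07 in WT replicate 1 against 8.19 in knockout replicate 3. The TSS share of its counts was 45.9 ± 10.9% in WT and 43.4 ± 3.07% in the knockout.

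Caprin2 encodes a cytoplasmic RNA-binding protein related to the stress granule factor Caprin1, and it is also known to promote Wnt signalling at the LRP receptors. It was the longest of the 10 genes, at 53766 bp (chromosome 6, 148842492 to 148896257, minus strand). WT replicates held 142, 128 and 128 CPM at the TSS, whereas knockout replicates held 228, 196 and 250 CPM. Counts over the gene body came to 50.8, 65.2 and 36.2 CPM in WT libraries, compared with 148, 171 and 165 CPM in knockout libraries. Knockout libraries were above WT libraries throughout. Knockout libraries held 71.3, 60.8 and 86.1 CPM at the TES, while WT libraries held 14.2, 34.3 and 5.69 CPM. The WT values were spread widely, with the lowest in WT replicate 3 (13 reads) and the highest in WT replicate 2 (35 reads). The TES log2 fold change was 2.19 ± 0.32, and it was 2.92 without WT replicate 2 and 1.67 without WT replicate 3. The TES fold was 2.94 within the lower-depth and 12.9 within the higher-depth libraries. In the gene body the log2 fold change was 1.67 ± 0.22.

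Nicn1 and Jpt1 encode proteins tied to microtubules. Nicn1 encodes a subunit of the tubulin polyglutamylase complex, which adds glutamate chains to tubulin. The gene (chromosome 9, 108290443 to 108296498, plus strand) had the largest gene body log2 fold change of the 10, 2.18 ± 0.24, and ranked 4 among all tested genes. Over the gene body, WT libraries held 4.92, 7.80 and 4.88 CPM against 22.7, 27.1 and 29.2 CPM in knockout libraries. WT replicates held 32.7, 43.4 and 41.3 CPM at the TSS, whereas knockout replicates held 59.1, 53.9 and 57.8 CPM, also without overlap. The closest libraries of the 2 genotypes stood at 22.7 and 7.80 CPM in the gene body but at 53.9 and 43.4 CPM at the TSS. Counts at the TES came to 34.9, 67.6 and 45.9 CPM in WT libraries, compared with 123, 172 and 146 CPM in knockout libraries (log2 fold change 1.60 ± 0.25). The TSS to gene body ratio was 6.64, 5.57 and 8.45 in WT and 2.60, 1.99 and 1.98 in the knockout. The TES to gene body ratio was 7.09, 8.67 and 9.40 in WT and 5.41, 6.35 and 5.00 in the knockout, lower in every knockout library, as for 6.65% of tested genes. The estimate of Nicn1 was thus larger in its body than at either end, but neither of its ratio changes was called.

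Amt, which encodes the aminomethyltransferase of the glycine cleavage system, starts 406 bp past the end of Nicn1 on the same strand. Its own TES counts rose from a mean of 44.7 to 93.8 CPM (log2 fold change 1.07 ± 0.22, edgeR adjusted p = 0.00511), while the estimates of 1.51 ± 0.40 at its TSS and 1.17 ± 0.21 over its body missed the threshold (adjusted p = 0.333 and 0.0967). The widths of the counting windows were not stated. Reads between the genes cannot be told apart, and the part of Amt in the TES value of Nicn1 was not tested.

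Jpt1 encodes a small protein of the Jupiter family, known in the fly as a microtubule-associated protein. The gene (chromosome 11, 115497345 to 115514393, minus strand) had 221, 213 and 314 CPM at the TSS in WT libraries, against 244, 319 and 353 CPM for the knockout ones. The groups overlapped through WT replicate 3. Knockout libraries held 67.8, 66.3 and 76.2 CPM over the gene body, while WT libraries held 39.5, 36.8 and 33.8 CPM. At the TES, WT libraries held 17.1, 29.4 and 20.1 CPM against 50.6, 61.2 and 68.4 CPM in knockout libraries. Downstream counts were higher in every knockout library, with log2 fold changes of 0.93 ± 0.14 (gene body) and 1.48 ± 0.25 (TES). The TSS to gene body ratio was 5.58, 5.78 and 9.27 in WT and 3.60, 4.81 and 4.64 in the knockout.

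**Figure D3:**
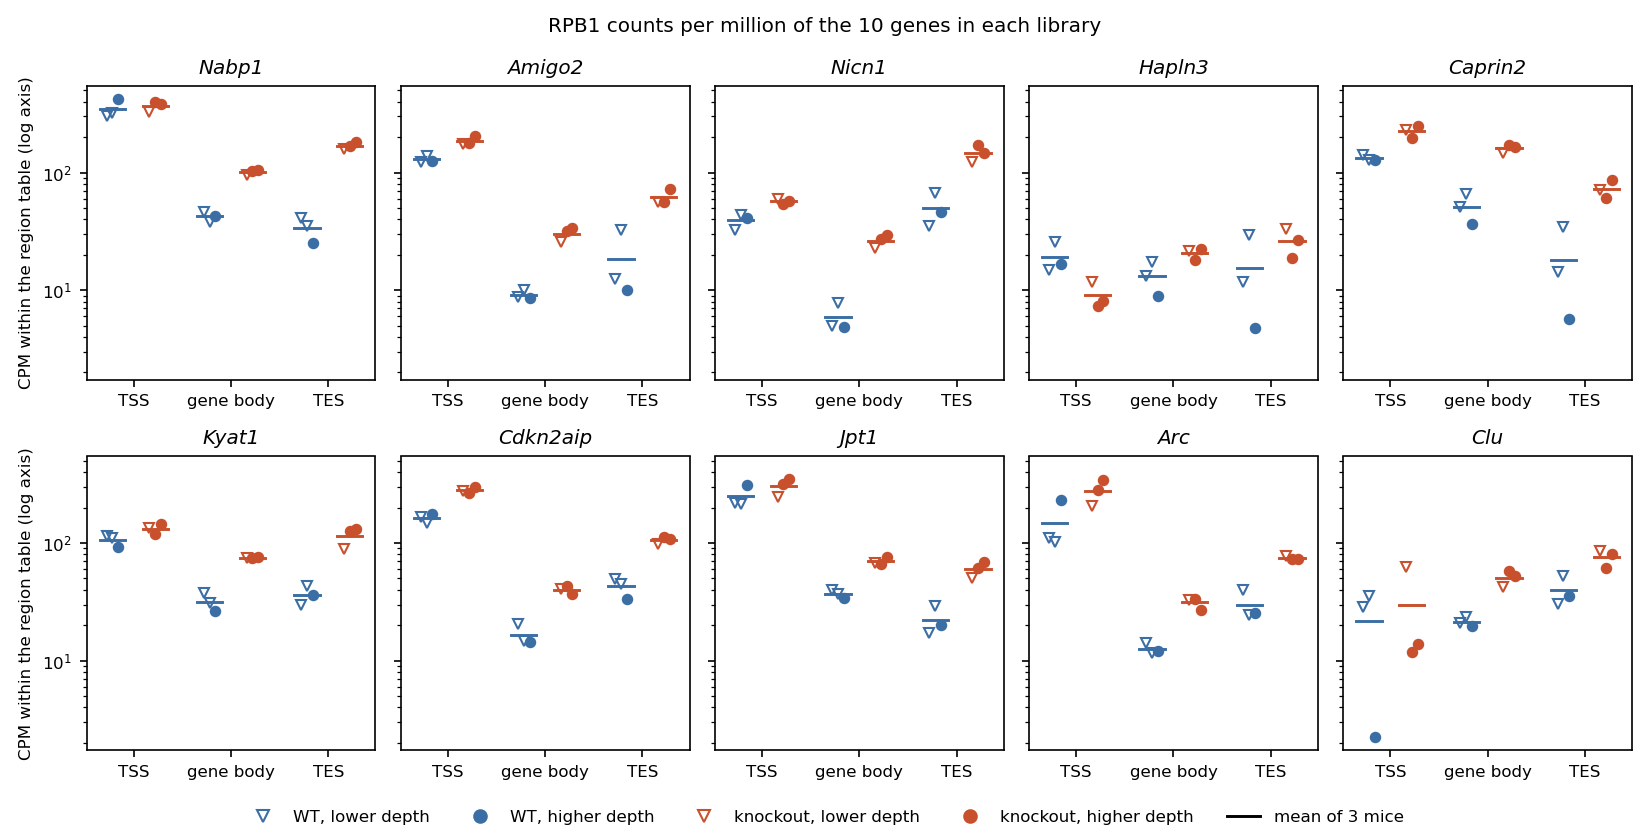
CPM within each region table (log axis) of the 10 genes in every library, with WT in blue, knockout in red, open triangles for the 3 lower-depth libraries, filled circles for the 3 higher-depth libraries and a line at the mean of 3 mice. Gene body values of the 2 genotypes do not overlap in any panel, while TSS values overlap for Nabp1, Jpt1, Arc and Clu and lie lower in the knockout for Hapln3.

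Amigo2, Hapln3 and Clu encode cell surface or secreted proteins. Amigo2 encodes a leucine-rich-repeat adhesion protein of the AMIGO family, known from neurons. The gene (chromosome 15, 97244074 to 97247287, minus strand) was the shortest of the 10, at 3214 bp. WT replicates held 123, 140 and 126 CPM at the TSS, whereas knockout replicates held 174, 179 and 205 CPM. Counts over the gene body came to 8.79, 9.99 and 8.55 CPM in WT libraries, compared with 25.5, 31.8 and 33.5 CPM in knockout libraries. The gap between genotypes was wider in the body (log2 fold change 1.74 ± 0.18) than at the TSS (0.53 ± 0.15), with no overlap in either. Knockout libraries held 56.7, 56.7 and 72.8 CPM at the TES, while WT libraries held 12.4, 32.4 and 10.1 CPM, where WT replicate 2 stood above the other WT libraries. The TSS to gene body ratio was 13.9, 14.0 and 14.7 in WT and 6.82, 5.62 and 6.12 in the knockout.

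Pced1b overlaps the first 315 bp of Amigo2 from the opposite strand, head to head. Its TSS counts rose from a mean of 68.6 to 176 CPM (log2 fold change 1.38 ± 0.16, edgeR adjusted p = 0.00401, and 0.0561 without knockout replicate 3), while its estimates of -0.12 ± 0.16 over the body and -0.24 ± 0.22 at the TES missed the threshold (adjusted p = 0.939 and 0.959). Both starts lie close together, so their reads cannot be told apart there. Pced1b is annotated to start inside Amigo2, and the widths of the counting windows were not stated. The part of Pced1b promoter reads in the Amigo2 gene body count, and so in its ratio, was not tested. The gene body count of Amigo2 was higher in the knockout, while that of Pced1b did not pass.

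Hapln3 encodes a hyaluronan and proteoglycan link protein of extracellular matrix, and it was the exception among the 10. The gene (chromosome 7, 79117027 to 79133173, minus strand) had 14.7, 25.9 and 16.6 CPM at the TSS in WT libraries, against 11.8, 7.39 and 8.05 CPM for the knockout ones. All knockout libraries lay below all WT libraries at the TSS, on 21 to 52 reads per library. Over the gene body, WT libraries held 13.3, 17.3 and 8.91 CPM against 21.7, 18.1 and 22.5 CPM in knockout libraries. The gene body groups were apart by a narrow margin, 17.3 against 18.1 CPM. WT replicates held 11.8, 29.4 and 4.81 CPM at the TES, whereas knockout replicates held 33.0, 18.7 and 26.6 CPM, and these overlapped. None of its 3 regions was called, with log2 fold changes of -1.06 ± 0.38, 0.66 ± 0.25 and 0.85 ± 0.49. The TES value was 0.38 without WT replicate 3 and 1.66 without WT replicate 2. Its place in the group rests on the TSS to gene body ratio, which was 1.10, 1.50 and 1.87 in WT and 0.545, 0.409 and 0.357 in the knockout (log2 change -1.78 ± 0.32, the lowest of the 10). The promoter listed for Hapln3 starts 2155 bp inside the outermost annotated end of the gene, and the start that the deposited TSS counts refer to was not stated. Mfge8 lies 594 bp upstream on the same strand, with log2 fold changes of 0.67, 0.76 and 0.33 that did not pass.

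Clu encodes clusterin, a secreted chaperone that binds misfolded proteins. The gene (chromosome 14, 65968483 to 65981548) had 20.8, 23.3 and 19.7 CPM over the gene body in WT libraries, against 42.6, 57.3 and 52.1 CPM for the knockout ones. Counts at the TES came to 30.2, 52.9 and 35.4 CPM in WT libraries, compared with 85.1, 61.2 and 80.2 CPM in knockout libraries. Both regions were higher in every knockout library, with log2 fold changes of 1.25 ± 0.16 and 0.96 ± 0.24. Knockout libraries held 63.0, 11.8 and 13.9 CPM at the TSS, while WT libraries held 28.3, 35.2 and 2.24 CPM. The genotypes overlapped over all 6 libraries, the 3 lower-depth libraries held the 3 highest values, and WT replicate 3 had 7 reads. Within each depth class the knockout libraries lay above the WT libraries, with folds of 1.99 (lower depth) and 5.73 (higher depth). The TSS log2 fold change of 0.49 ± 0.82 turned to -0.67 without knockout replicate 1 and to -0.15 without WT replicate 3. The estimate was 1.45, and called, once depth class was in the fit. The TES call of Clu ended with joint table scaling, with DESeq2 and without WT replicate 1 or 3 or knockout replicate 1 or 3.

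Kyat1 encodes a kynurenine aminotransferase, which turns kynurenine into kynurenic acid and also acts on sulfur and selenium amino acid conjugates. The gene (chromosome 2, 30185124 to 30206295, minus strand) had 38.0, 30.7 and 26.2 CPM over the gene body in WT libraries, against 74.4, 75.3 and 75.9 CPM for the knockout ones. The knockout libraries were close to each other (SD 0.761 CPM), and the groups were far apart. At the TES, WT libraries held 29.6, 43.1 and 35.9 CPM against 88.1, 127 and 132 CPM in knockout libraries. WT replicates held 115, 111 and 93.4 CPM at the TSS, whereas knockout replicates held 133, 120 and 145 CPM. The TSS groups were next to each other without overlap, 115 against 120 CPM at the closest pair. Log2 fold changes were 0.32 ± 0.16 (TSS), 1.25 ± 0.16 (gene body) and 1.70 ± 0.24 (TES). The predicted lncRNA gene Gm31201 overlaps its promoter end by 447 bp and was not among the table genes.

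Arc encodes a capsid-like protein that regulates synaptic AMPA receptors, and its gene is a classic activity-induced gene of neurons. The gene (chromosome 15, 74669081 to 74672570) had 110, 102 and 232 CPM at the TSS in WT libraries, against 207, 284 and 345 CPM for the knockout ones. WT replicate 3 lay inside the knockout range. Counts over the gene body came to 14.0, 11.7 and 12.1 CPM in WT libraries, compared with 33.0, 33.7 and 27.1 CPM in knockout libraries. Knockout libraries held 78.2, 73.6 and 73.3 CPM at the TES, while WT libraries held 39.6, 24.5 and 25.4 CPM. Downstream groups did not overlap, and the log2 fold changes of 1.31 ± 0.17 and 1.32 ± 0.23 were nearly equal. The TSS log2 fold change was 0.89 ± 0.30 and reached 1.39 without WT replicate 3. The TSS to gene body ratio was 7.83, 8.78 and 19.1 in WT and 6.28, 8.44 and 12.7 in the knockout, which overlapped, and its log2 change of -0.34 ± 0.39 turned to 0.10 without WT replicate 3. Of the 10 TSS ratio changes that of Arc was nearest to 0. The lncRNA gene Gm32994, which was not among the table genes, lies 442 bp from Arc.

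The balance between promoter and gene body was compared over the group. The TSS to gene body ratio had a log2 change below 0 for 10 of 10 genes, with a median of -0.96, and 7 genes had all knockout libraries below all WT libraries, as 4.95% of tested genes did. The exceptions were Cdkn2aip, Arc and Clu. Clu had a log2 ratio change of -0.80 ± 1.04, which turned to 0.31 with depth class as a covariate. Within the lower-depth and higher-depth libraries the knockout to WT folds of its ratio were 1.03 and 2.08. No ratio change passed in the fit across 12679 genes, where 0.00% were called by edgeR (462 genes at an unadjusted p under 0.05, and 0 called by limma). With depth class as a covariate 5 of the 10 ratios were called lower (Nabp1, Amigo2, Nicn1, Hapln3 and Kyat1). That fit also called more ratios over all genes, as counted in the closing section. A lower ratio was part of how the genes were chosen, so nothing was read from these calls. With gene body scaling the median change of the 10 ratios was -0.59, with 1 of the 10 above 0, and that of all genes was 0.35. In WT libraries 6 of the 10 (Nabp1, Amigo2, Nicn1, Cdkn2aip, Jpt1 and Arc) had a ratio of mean CPM at or above the 95 percentile of all genes, and in knockout libraries 2 did (Cdkn2aip and Arc). Amigo2 went from the 99.5 to the 94.9 percentile, Nicn1 from 95.1 to 70.3 and Nabp1 from 97.2 to 84.9. A high WT ratio is part of what a lower knockout ratio selects, so these positions are a description. As a share of raw counts the TSS took 9.10 ± 1.80% of all counts in WT and 10.8 ± 1.11% in the knockout. Against this the TSS share of Amigo2 went from 55.9 ± 8.99% to 41.4 ± 1.57% and that of Nicn1 from 29.1 ± 8.57% to 16.3 ± 1.17%, while that of Arc was 48.4 ± 17.8% and 49.4 ± 9.92%. The raw share of Arc was thus no lower in the knockout.

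**Figure D4:**
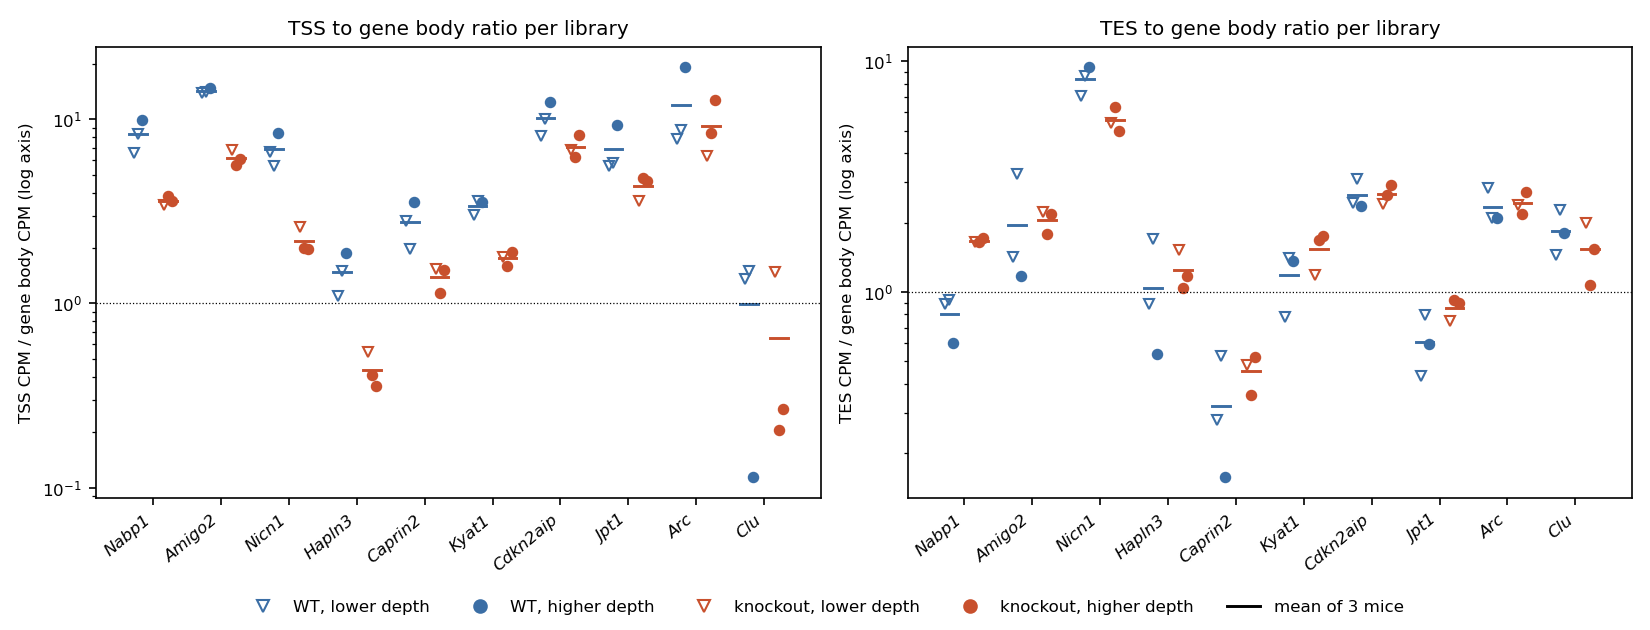
Ratio of TSS CPM (left) and TES CPM (right) to gene body CPM in each library (log axes), with WT in blue, knockout in red, open triangles for lower-depth and filled circles for higher-depth libraries, and a line at the mean of 3 mice. On the left the genotypes are apart for 7 genes, and on the right Nabp1 is higher and Nicn1 lower in all knockout libraries.

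None of the 10 TES to gene body ratios was called (that of Nabp1 was with depth class in the fit), and differences among the genes were not tested. The log2 change of this ratio was highest for Nabp1 and lowest for Nicn1 (-0.59 ± 0.22), and the other 8 lay between -0.29 and 0.55. Those of Cdkn2aip (0.05 ± 0.21) and Arc (0.04 ± 0.24) were close to 0, which means that the gene body and TES differences were of like size in both genes. Per kilobase of annotated gene, WT gene body levels were highest for Arc (3.61 ± 0.36 CPM per kb, mean ± SD, n = 3) and Cdkn2aip (3.59 ± 0.75), followed by Nabp1 (3.13 ± 0.31), Amigo2 (2.83 ± 0.24) and Jpt1 (2.15 ± 0.17). From Arc to Amigo2, neighbours in this order differed by less than the larger of their SDs, whereas Amigo2 and Jpt1 differed by more. Clu (1.63 ± 0.14), Kyat1 (1.49 ± 0.28), Nicn1 (0.97 ± 0.28), Caprin2 (0.94 ± 0.27) and Hapln3 (0.82 ± 0.26) were below the median of 1.73 over all table genes. In the knockout Amigo2 had the highest level (9.42 ± 1.31 CPM per kb), and Arc (8.95 ± 1.03), Cdkn2aip (8.74 ± 0.66) and Nabp1 (7.51 ± 0.37) followed. The median gene length of the group was 13287 bp, against 23069.5 bp for the 12380 table genes with a length.

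Downstream folds were also computed within depth and label classes, and all were above 1. For the gene body this was fixed beforehand, since no WT value reached a knockout value in any of the 10 genes. The TES direction was fixed likewise for 9 genes and open for Hapln3 alone. The genes were also picked from this contrast. The split therefore cannot test the direction, and the folds describe size only. Gene body folds of the 10 genes ran from 1.42 to 3.57 within the lower-depth libraries (knockout replicate 1 against WT replicates 1 and 2) and from 2.11 to 5.76 within the higher-depth libraries (knockout replicates 2 and 3 against WT replicate 3). TES folds ran from 1.60 to 4.12 and from 1.996 to 12.9. By mouse number, gene body folds ran from 1.63 to 4.61 for the pair with prefix C and from 1.55 to 4.44 for the other 4 libraries, and TES folds from 1.96 to 5.02 and from 1.32 to 5.76. At the TSS 9 of 10 folds were above 1 in the lower-depth and 8 of 10 in the higher-depth libraries. The TSS direction was fixed likewise for 5 genes with all knockout libraries above all WT libraries, and for Hapln3 with all below. Both depth classes and the prefix C pair hold a single library of at least 1 genotype, and all these folds are given without an error.

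The profile of the group was not limited to it. Among 12643 genes tested in all 3 regions, 25 had gene body and TES log2 fold changes of at least 1 with a TSS log2 fold change under 1, and 7 of these were among the 10. The count of 25 was 38 without WT replicate 1 and 15 with joint table scaling. Hapln3, Jpt1 and Clu were outside these bounds, Jpt1 by its gene body value of 0.93, Clu by its TES value of 0.96 and Hapln3 by both. With the TSS bound set at 0.5 instead, 11 genes were left, and 2 of them were among the 10. By distance over the 3 log2 fold changes from the median of the group, measured on the 6 libraries, the nearest other named genes with a gene body level at or above the median were Slc20a1 (TSS 0.65, gene body 1.33 and TES 1.19), a phosphate transporter, Retsat (0.36, 1.17 and 1.19), a retinol saturase, Hao2 (0.45, 0.92 and 1.27), a peroxisomal hydroxyacid oxidase, Slc5a3 (0.20, 1.01 and 1.24), a myo-inositol transporter, and Slc26a2 (0.07, 1.26 and 1.28), a sulfate transporter. Their distances were 0.39 to 0.51, and of the 10 genes Kyat1 (0.25) and Cdkn2aip (0.35) were nearest to the median and Hapln3 (1.81) farthest. All of these other genes were called at the TES and none at the TSS, and the gene bodies of Retsat and Hao2 were not called. The TSS estimates of Retsat and Hao2 rested on knockout replicate 1 (195 and 15.2 CPM). Knockout replicates 2 and 3 held 89.5 and 101 CPM for Retsat and 6.30 and 7.32 CPM for Hao2.

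The partners and relatives of the 10 genes were examined from 11 lists, which held 151 other genes, 129 of them tested in the gene body. In the edgeR test 0 of 129 were called in the gene body (11 at an unadjusted p under 0.05, and 3 by DESeq2), where 0.252% of all tested genes were called. At the TSS 0 of 128 were called (9 at an unadjusted p under 0.05, and 0 by DESeq2). At the TES 4 of 129 were called, all 4 higher, where 0.915% of tested genes were called. The median log2 fold change of these genes was 0.05 in the gene body, -0.01 at the TSS and 0.02 at the TES. The SOSS complex and Integrator subunits around Nabp1 had 0 of 15 called in each region, with gene body log2 fold changes from -0.27 to 0.54. Of the pausing, elongation and termination factors 1 of 31 was called, Hexim1, which encodes an inhibitor of the elongation kinase P-TEFb. Its TES counts rose from a mean of 64.6 to 129 CPM (log2 fold change 0.99 ± 0.23, adjusted p = 0.0153). That call ended without WT replicate 1 and without knockout replicate 3 (adjusted p = 0.158 and 0.072) and with joint table scaling (0.0689).

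The chaperones listed with Clu had 12 of 13 gene body log2 fold changes above 0 (median 0.49), against 8 of 13 at the TSS (median 0.01). Their TSS to gene body ratio had a median log2 change of -0.62, with 1 of 13 above 0. In the gene body, at the TSS and for this ratio 0 of 13 were called. At the TES 3 of 13 were called. Hspa1a rose from a mean of 34.5 to 149 CPM (log2 fold change 2.13 ± 0.30, edgeR adjusted p = 1.11e-05) and Hspa1b from 43.3 to 103 CPM (1.28 ± 0.25, adjusted p = 0.00286). Both encode inducible HSP70, and as near-identical neighbours their reads may be split between them. Dnajb9, a chaperone partner of the endoplasmic reticulum, rose from 64.2 to 121 CPM (0.92 ± 0.23, adjusted p = 0.0328). Its call ended with joint table scaling (0.116) and without any single library except knockout replicate 3 (adjusted p from 0.0639 to 0.168). The activity-induced genes listed with Arc had 0 of 15 called in each region, with 13 of 15 gene body log2 fold changes above 0 and a median of 0.33. The kynurenine pathway (0 of 5 others tested), the ARF and p53 pathway (0 of 10), RNA granule factors (0 of 12), tubulin glutamylation (0 of 9), hyaluronan matrix (0 of 8), adhesion proteins related to AMIGO (0 of 10) and Jpt2 (0 of 1) had none called in the gene body or at the TES.

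Cell type markers were read beside these values from their gene body counts. Among 40 measured markers edgeR called 0 and DESeq2 called 2 (1 of zona glomerulosa and 1 of fibroblasts), and 6 had an unadjusted edgeR p under 0.05. Of these 6, chromaffin cells held 3, and zona glomerulosa, fibroblasts and endothelium held 1 each. All 8 cortical steroidogenic markers were in the table, with summed levels of 2406 to 5771 CPM in WT and 3763 to 4672 CPM in the knockout. For chromaffin cells of the medulla 7 of 8 markers were in the table, 7 of 7 had log2 fold changes above 0 (median 0.82), with summed levels of 255 to 484 CPM in WT and 340 to 942 CPM in the knockout. For zona glomerulosa 5 of 5 were above 0 (median 0.40). The fibroblast markers had 3 of 7 in the table, all 3 below 0, with sums of 186 to 352 CPM in WT and 118 to 146 CPM in the knockout. The neuron markers had 3 of 6 in the table, without Rbfox3, Stmn2 and Gap43. Of the 3 measured, 1 was above 0, with sums of 429 to 709 CPM in WT and 458 to 574 CPM in the knockout. The summed Schwann cell, endothelial, macrophage and zona glomerulosa levels overlapped between genotypes. None of the 5 lymphocyte or 5 kidney tubule markers was in the table. The part of cell composition in the values of the 10 genes was not tested.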

How the data were processed

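RPB1 ChIP-seq counts of 3 WT and 3 Armc5(-/-) adrenal libraries were used. The authors deposited whole-number read counts per gene for the TSS, gene body and TES, with 1 column per library, and the same rows stacked as a joint table (38154 rows, 0 cells differing). Per the submitters' processing notes the builds were GRCm38 and mm10 and the tools, with no role stated, limma, edgeR, HOMER, MACS2, Picard, BWA, Trimmomatic and bcl2fastq 2.20. The sources used here do not state the counter, window widths, read filters or any input library. Columns were matched to samples by mouse number and genotype.

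Each table was fitted whole with edgeR 4.0.16 in R 4.3.3: TMM scaling, filterByExpr (minimum count 10, minimum total 15), the quasi-likelihood F test with no covariate, and Benjamini-Hochberg adjustment, with calls under 0.05. Ratios were fitted as a region by genotype interaction with library as block. CPM used the same scaling. Standard errors are the log2 fold change over the square root of F. The scripts were checked on simulated counts. Alternatives used DESeq2 1.42.0, limma 3.58.1, other scalings, filters and covariates, and left out each library. The 10 genes, the lists, the rule for named genes (the 10, table genes within 5000 bp, the 5 nearest profiles among named genes at or above the median gene body CPM, and up to 3 called genes per list) and the tests were chosen with earlier results of these data known. Each library was taken as a separate animal. Of 12718 symbols 12380 matched RefSeq GRCm38.p6. Coordinates are 1-based. Total counts per library limit the precision, as low as 7 reads for 1 TSS value.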

Additional observations from a re-analysis of the deposited data

How the results depend on the processing

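Over 14 alternatives per region and 12 per ratio, log2 fold changes of the 10 genes kept their sign in 140 of 140 values for the gene body, 140 of 140 for the TES and 136 of 140 for the TSS. The TSS ratio kept its sign in 117 of 120 and the TES ratio in 112 of 120. Counts of calls moved more. At the TSS 43 genes (0 of the 10) became 107 with joint table scaling, 95 (2) with DESeq2, 75 (2) with mouse number class and 158 (4) with depth class. In the gene body 32 genes (9) became 0 (0) with joint table scaling (647 at an unadjusted p under 0.05) and with mouse number class (519), 179 with DESeq2 and 95 with depth class. At the TES 116 genes became 61 with joint table scaling and 184 with depth class. The TSS ratio went from 0 to 27 genes (5 of the 10) and the TES ratio from 2 to 9 (1 of the 10, Nabp1) with depth class, and the TES ratio to 0 with limma, mouse number class, RLE scaling and gene body scaling (with 775, 627, 730 and 709 at an unadjusted p under 0.05). Leaving out 1 library gave 5 to 84 TSS genes (0 to 1 of the 10), 0 to 37 gene body genes (0 to 6), 73 to 148 TES genes (8 to 9) and 0 to 15 TES ratios. The gene body count was 0 without WT replicate 1 and without knockout replicate 1, 2 or 3, and 12 (4 of the 10) without WT replicate 3. The TES call of Clu ended without WT replicate 1 or 3, without knockout replicate 1 or 3, with joint table scaling and with DESeq2. Joint table scaling moved the median of all genes by 0.25 (TSS), -0.10 (gene body) and -0.10 (TES), and gene body scaling moved that of the TSS ratio by 0.36. The cause of these shifts in calls was not tested.

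Replicate numbers belong to different mice, and libraries with the same number did not deviate together in all pairs (correlation of gene body deviations 0.08, -0.58 and 0.27 for numbers 1, 2 and 3). With the replicate block 100 TSS genes (3 of the 10), 0 gene body genes (0), 194 TES genes, 0 TSS ratios and 0 TES ratios were called.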
